A study of Mus musculus with 8 samples.

Results

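Chromatin accessibility around 7 genes of the Sonic hedgehog pathway, Shh, Ptch1, Gli1, Gli2, Gli3, Hhip and Smo, was compared between regions of the embryonic mouse forebrain by single-nucleus ATAC-seq, which counts the sites where a transposase can cut open chromatin. The genes were taken as a pathway, out of 21938 protein-coding genes, and their elements were all merged peaks that overlapped the gene body or the 50 kb upstream of it. This rule gave 247 elements out of 292532 merged regions in the series, with 102 at Gli3, 76 at Gli2, 22 at Ptch1, 17 at Hhip, 16 at Smo, 10 at Gli1 and 4 at Shh. Of these, 59 held a peak in all 8 samples and could be tested, out of 68274 such regions genome-wide. The samples were WT brain tissue from 3 ganglionic eminences (GEs) at E12.5, 2 samples each of the medial GE (MGE), the lateral GE (LGE) and the caudal GE (CGE), and from the cortex (CTX) 1 at E12.5 (CTX 1) and 1 at E14.5 (CTX 2). The labels give no strain, sex or number of embryos. They do not say whether the 2 samples of a region came from separate litters, so p-values measure only the spread between these samples. The 2 CTX samples differ in labelled age, so their difference is not a replicate spread, yet it enters the comparisons with CTX.

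Shh is a secreted ligand that binds Ptch1, a receptor that keeps the membrane protein Smo inactive until ligand arrives. Active Smo alters the processing of the zinc finger factors Gli2, which acts mostly as an activator, and Gli3, which acts mostly as a repressor, and the pathway then induces Gli1, Ptch1 and Hhip, a membrane protein that binds and holds back the ligand. In the ventral forebrain the signal is needed for MGE identity, marked by Nkx2-1, and Gli3 is known for restricting ventral fates in the dorsal telencephalon.

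The libraries held 77387940 to 138873845 counts in peaks from 3465 to 6845 nuclei each, 39253 nuclei in all, and 881 of 38362 distinct barcodes occurred in more than 1 library. Peaks had been called separately in each sample, 103633 to 182638 per sample, and counts exist only within a sample's own peaks, so an element without a peak has no count there, which is not an accessibility of 0. On summed counts, the MGE markers Nkx2-1, Lhx6 and Lhx8 were higher in MGE in each of the 3 comparisons (3 of 3 windows), the CTX markers Neurod6 and Emx1 were higher in CTX (2 of 3), and none of the LGE or CGE markers passed the test against its own region. Per covered kb, that is relative to the length under a sample's own peaks, the same test called 0 of the 3 MGE markers against LGE and CGE and 1 (Nkx2-1) against CTX, and 0 of the 3 CTX markers. Lhx6 went from a log2 difference of 1.91 against LGE on summed counts to -0.09 on that scale. A known marker's difference was thus lost there, while that of Nkx2-1 was 1.57. On that scale 0 of 18330 windows were called against LGE and CGE. The CTX samples differed in make-up as well as age, with 94.7% of nuclei in glutamatergic-like clusters in CTX 1 but 10.8% in CTX 2, where 83.1% fell in unnamed clusters, almost all in 1 led by Cldn9, Tmem156 and Gzmk, with Dmrta1, Dmrt1 and Dmrt3 also among its top 10 genes. Glutamatergic neurons accumulate in the developing cortex with age, whereas the CTX sample labelled as the older held the smaller share of them. Ages are given as labelled, and an exchange of the CTX samples was not tested. Glutamatergic-like nuclei made up 0.248% and 1.88% of the MGE samples, 13.5% and 10.6% of LGE and 24.8% and 33.9% of CGE. In values summed over all nuclei of a sample, fewer open nuclei and less opening per nucleus cannot be told apart.

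Sequences of GRCm38 are shown here for elements to which the results below refer. The first holds the central 300 bases of a Ptch1 intronic element that was higher in MGE, the second those of a Ptch1 element with a peak in both MGE samples and no other sample, another those of a Gli2 intronic element that was lower in MGE, and the last those of a Hhip element with no count in either MGE sample.
Ptch1 intron, higher in MGE, chr13:63530669-63530968, plus strand: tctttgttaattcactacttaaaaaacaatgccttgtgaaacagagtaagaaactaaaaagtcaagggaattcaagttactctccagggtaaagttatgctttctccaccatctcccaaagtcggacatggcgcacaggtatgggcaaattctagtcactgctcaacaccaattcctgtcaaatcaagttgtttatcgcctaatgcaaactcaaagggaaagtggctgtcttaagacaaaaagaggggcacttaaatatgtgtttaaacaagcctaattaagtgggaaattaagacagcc
Ptch1, peak in MGE only, chr13:63538824-63539123, plus strand: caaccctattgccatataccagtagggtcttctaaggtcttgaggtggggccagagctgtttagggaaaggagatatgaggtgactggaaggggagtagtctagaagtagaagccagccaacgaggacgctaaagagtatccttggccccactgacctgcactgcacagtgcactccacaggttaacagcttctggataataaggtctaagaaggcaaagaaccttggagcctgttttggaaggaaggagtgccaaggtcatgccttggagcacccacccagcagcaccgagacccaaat
Gli2 intron, lower in MGE, chr1:118936051-118936350, plus strand: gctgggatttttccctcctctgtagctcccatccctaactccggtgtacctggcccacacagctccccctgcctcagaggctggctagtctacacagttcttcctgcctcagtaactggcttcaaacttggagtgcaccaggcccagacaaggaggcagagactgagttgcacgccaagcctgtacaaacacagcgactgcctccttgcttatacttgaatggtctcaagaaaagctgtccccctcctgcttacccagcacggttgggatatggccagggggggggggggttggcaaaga
Hhip, no MGE count, chr8:79992646-79992945, plus strand: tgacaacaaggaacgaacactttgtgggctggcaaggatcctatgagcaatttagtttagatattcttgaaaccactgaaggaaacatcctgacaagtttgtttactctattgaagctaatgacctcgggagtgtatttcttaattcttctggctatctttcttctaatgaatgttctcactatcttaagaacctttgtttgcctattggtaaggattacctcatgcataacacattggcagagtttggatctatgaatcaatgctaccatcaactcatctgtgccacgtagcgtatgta

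The letters GACCACCCA, the core to which GLI factors are known to bind, were searched on both strands. They occurred in 4 of the 247 elements, 6 times in all, and every match is shown with 10 bases on each side, written on the strand of the match with the match in capitals.
Ptch1 start region, chr13:63566425-63566453, plus strand: aaagtagagaGACCACCCAggtaggcaac
Ptch1 start region, chr13:63569275-63569303, minus strand: cctcagccctGACCACCCAagtcgagcag
Ptch1 start region, chr13:63573455-63573483, minus strand: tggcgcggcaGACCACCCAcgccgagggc
Gli2 intron, chr1:118969533-118969561, plus strand: ggcctgcccaGACCACCCAgtctccagca
Gli2 start region, chr1:119046536-119046564, minus strand: tggggctgagGACCACCCAggcaattcat
Smo upstream, chr6:29719063-29719091, minus strand: acatggtgggGACCACCCAtgtggtagag

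The Ptch1 matches lay 700 bp and 3550 bp upstream and 133 bp downstream of the nearest annotated start. Of 358 regions of at least 10 kb that held a peak in every sample, 49 (13.7%) had at least 1 match and 1 (0.279%), the Ptch1 start region, had 3. None of the 59 tested elements had a match in its central 300 bases, against 180 of all 68274 regions tested (0.264%). In RefSeq promoter windows on GRCm38, 83 of 32851 held the letters (0.253%), and none of the 5 members with an entry (Ptch1, Gli2, Gli3, Hhip and Smo) did. A match is a string of letters and was not tested as a binding site.

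MGE was compared with each other region to find which pathway elements differed in accessibility. Counts were summed over a sample's nuclei within each element and given as CPM, counts scaled to a common library size, and an element was called where the edgeR quasi-likelihood test gave an adjusted p of 0.05 or less over all regions tested. Because a region covered by a longer peak collects more counts, each comparison was also made per covered kb, that is with the length under a sample's own peaks as an offset. On summed counts 5 of the 59 elements were higher and 18 lower in MGE than in LGE, where 10.6% of all regions were called, 4.86% higher and 5.79% lower. Against CGE 4 were higher and 10 lower, with a background of 9.4% (3.56% higher, 5.84% lower). Against CTX 6 were higher and 13 lower, with a background of 11.8% (4.9% higher, 6.87% lower). Per covered kb the counts were 4 higher and 6 lower against LGE, 7 and 1 against CGE and 6 and 1 against CTX, where 6.48% (1.28% higher, 5.2% lower), 5.09% (2.92% higher, 2.17% lower) and 6.88% (3.25% higher, 3.63% lower) of all regions were called. The median log2 difference of all regions moved on that scale from -0.01 to -0.17 against LGE and from near 0 to 0.10 against CGE.

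On summed counts the raised elements were few and, apart from 1 Gli2 element against LGE, lay at Shh, Ptch1 and Hhip. Per covered kb 1 Gli2 and 2 Gli3 elements were also higher than in CGE, and 1 of each than in CTX. Both tested Shh elements, 1 of 9 at Ptch1 and 1 of 2 at Hhip were higher in MGE in each comparison on both scales, while no Gli1, Gli3 or Smo element was higher in any comparison on summed counts. On summed counts 4 of the 59 elements were higher in MGE in each comparison, where 0.932% of all 68274 regions were, and 7, at Gli2 and Gli3, were lower, where 2.01% were. None of those 7 was called in each comparison per covered kb. The 3 comparisons share the MGE samples and are therefore not independent of each other.

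**Figure D1:**
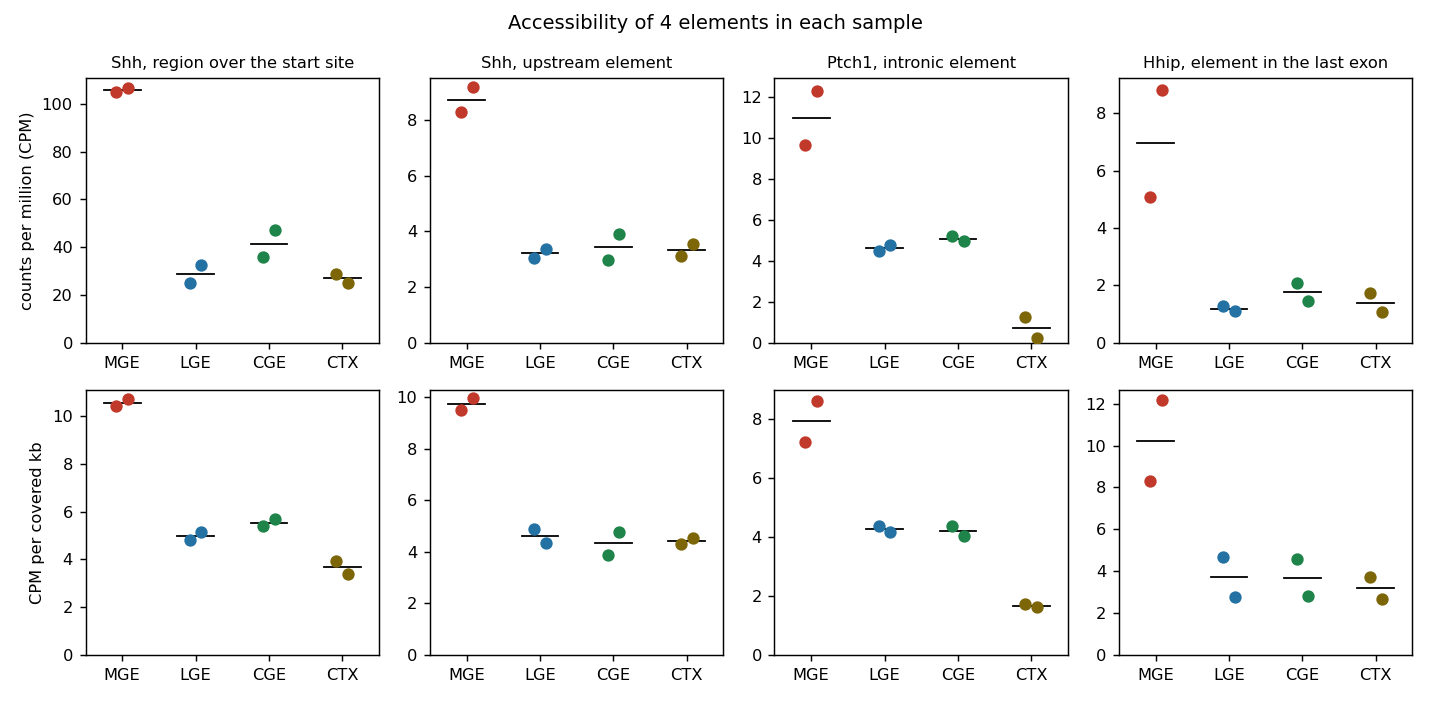
Accessibility of the 4 elements called higher in MGE in each comparison, as CPM (upper row) and as CPM per covered kb (lower row), with a point for each of the 2 samples of MGE, LGE, CGE and CTX. On both scales the MGE points lie above every other point in all 4 elements.

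The largest Shh element spanned the gene's start, chr5:28457665-28467800, and read 105 and 107 CPM in the MGE samples, 25.01 and 32.6 in LGE, 35.8 and 47.3 in CGE, and 29.0 and 24.96 in CTX. Both MGE samples were above every other sample, and the lowest of the other samples were in CTX and LGE. The log2 difference was 1.87 (SE 0.20, adjusted p = 0.00259) against LGE, 1.34 (SE 0.20, adjusted p = 0.00725) against CGE and 1.97 (SE 0.20, adjusted p = 0.00434) against CTX. Peaks covered 10078 and 9948 bp of this element in MGE but 5183 to 8328 bp in the other samples. Per covered kb the levels were 10.4 and 10.7 CPM in MGE and 3.38 to 5.68 elsewhere, and the log2 differences fell to 1.07 (adjusted p = 0.000375), 0.93 (adjusted p = 0.00196) and 1.53 (adjusted p = 0.00284).

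The other tested Shh element lay 2.09 kb upstream, chr5:28469348-28470278. It read 8.27 and 9.17 CPM in MGE, 3.06 and 3.36 in LGE, 2.98 and 3.92 in CGE, and 3.11 and 3.54 in CTX, so MGE stood above the other regions, which overlapped each other. In log2 terms the difference was 1.43 (SE 0.24, adjusted p = 0.0106) against LGE, 1.33 (SE 0.24, adjusted p = 0.0150) against CGE and 1.39 (SE 0.29, adjusted p = 0.0266) against CTX, and 1.06, 1.17 and 1.14 per covered kb (adjusted p = 0.0138, 0.00948 and 0.0288). The remaining 2 of the 4 Shh elements lacked a peak in at least 1 sample and were not tested.

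Over the whole Shh window, gene body and 50 kb upstream, peaks covered 10.9 kb in both MGE samples, 5.81 and 7.10 kb in LGE, 7.58 and 9.52 kb in CGE, and 9.44 and 8.48 kb in CTX. The level per covered kb was 5.83 and 5.97 CPM in MGE, 2.93 and 2.82 in LGE, 3.23 and 3.05 in CGE, and 2.36 and 1.91 in CTX. In the order of these levels MGE stood first, LGE and CGE were close to each other, and both CTX samples were lowest. The log2 difference per covered kb passed the test against CTX (1.47, SE 0.22, adjusted p = 0.0175), but not against LGE (1.05, SE 0.20, adjusted p = 0.802) or CGE (0.92, SE 0.20, adjusted p = 0.970). Of 18330 gene windows on this scale, 0% were called against LGE and CGE and 0.0546% against CTX (0.0491% higher, 0.00546% lower in MGE), while 883, 557 and 2118 had an unadjusted p under 0.05 and DESeq2 called 13, 13 and 282 windows. With the replicate number as a block, the Shh difference was called in each comparison, at 1.05 (SE 0.12, adjusted p = 0.00120) against LGE, 0.92 (SE 0.11, adjusted p = 0.00303) against CGE and 1.47 (SE 0.16, adjusted p = 0.0113) against CTX, and that fit called 2554, 1065 and 181 windows in all. On summed counts Shh was called in each comparison, at 1.81 (SE 0.15, adjusted p = 0.00320) against LGE, 1.28 (SE 0.14, adjusted p = 0.0138) against CGE and 1.74 (SE 0.19, adjusted p = 0.00506) against CTX, with backgrounds of 0.142% against LGE (0.0873% higher, 0.0546% lower), 0.175% against CGE (0.0982% higher, 0.0764% lower) and 5.02% against CTX (1.24% higher, 3.78% lower).

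Ptch1, the receptor and a target of the pathway, was raised in MGE at an intronic element 32.8 kb from its nearest start, chr13:63530105-63531532, the first sequence shown above. It read 9.69 and 12.3 CPM in MGE, 4.51 and 4.80 in LGE, 5.20 and 4.96 in CGE, and 1.26 and 0.225 in CTX, the last from 17 counts. MGE was highest, CGE lay slightly above LGE, and CTX was lowest. MGE differed by a log2 value of 1.23 (SE 0.21, adjusted p = 0.0120) against LGE, 1.11 (SE 0.21, adjusted p = 0.0187) against CGE and 3.87 (SE 0.72, adjusted p = 0.0185) against CTX, and per covered kb 0.88 (adjusted p = 0.0339), 0.91 (adjusted p = 0.0332) and 2.23 (adjusted p = 0.00387).

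A smaller Ptch1 element, chr13:63538581-63539367, held a peak in both MGE samples, with 255 and 51 counts, and in no other sample; it overlaps an annotated exon and its central bases are the second sequence shown. It was the only 1 of the 247 elements with a peak in both MGE samples and in no sample of another region (0.405%, against 0.61% of all merged regions). By contrast, a neighbouring Ptch1 element, chr13:63540573-63545934, was lower in MGE than in LGE, at 23.5 and 30.9 against 42.1 and 49.7 CPM (log2 difference -0.77, SE 0.17, adjusted p = 0.0301), also per covered kb (-0.77, adjusted p = 0.0119). The exonic element chr13:63524078-63526751, chosen after its values were seen, was lower in MGE than in CGE per covered kb (-0.94, SE 0.25, adjusted p = 0.0265) and missed the threshold on summed counts (-0.95, adjusted p = 0.0555). Against CTX 2 longer Ptch1 elements were higher in MGE on summed counts, chr13:63510917-63516160 by 0.91 (SE 0.19, adjusted p = 0.0283) and chr13:63550936-63560354 by 0.68 (SE 0.14, adjusted p = 0.0267), but not per covered kb (adjusted p = 0.432 and 0.960).

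Hhip, the ligand-binding inhibitor, was raised in MGE at an element over its last annotated exon, chr8:79966046-79966771, 91.2 kb from its nearest start. It read 5.09 and 8.82 CPM in MGE, 1.28 and 1.11 in LGE, 2.08 and 1.47 in CGE, and 1.73 and 1.07 in CTX. The MGE samples differed from each other by more than any other region's samples did, yet both were above all others. The difference on the log2 scale was 2.52 (SE 0.36, adjusted p = 0.00604) against LGE, 1.96 (SE 0.35, adjusted p = 0.0144) against CGE and 2.30 (SE 0.44, adjusted p = 0.0199) against CTX, and per covered kb 1.43, 1.47 and 1.67 (adjusted p = 0.00832, 0.00850 and 0.0264).

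Of the 17 Hhip elements, 15 lacked a peak in at least 1 sample and were not tested. The element whose sequence is the last shown, chr8:79992051-79993541, overlaps a coding exon and was chosen after its values were seen. It had no peak in MGE 1 and a peak of 10 bp without a count in MGE 2, and read 4.48 and 3.43 CPM in LGE, 6.71 and 2.77 in CGE, and 12.6 and 23.8 in CTX. Another 2 Hhip elements held a peak in the CTX samples alone, chr8:79997993-79998917 with 106 and 304 counts and chr8:80039759-80041167 with 13 and 936.

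Of the 59 elements, 23, 14 and 19 were called against LGE, CGE and CTX in either direction. These numbers changed when a sample was left out, as did the numbers over all regions tested. Such a fit leaves 1 sample in a region, and the part of that loss or of a single library was not tested. The Shh start element kept its calls in each comparison whichever library was left out. The upstream Shh element was not called against LGE without LGE 1 (adjusted p = 0.0599), against CGE without either CGE sample (0.101 and 0.0528), or against CTX without any 1 of the MGE, LGE or CGE samples (0.0589 to 0.102). The Ptch1 intronic element was not called against LGE or CGE without either sample of that region (0.0538 to 0.118), nor against CTX without either MGE sample (0.0860 and 0.0735), and the Hhip element behaved likewise against CGE (0.0525 and 0.0955) and CTX (0.0551 and 0.0835). The log2 differences behind these lost calls kept their direction. For the upstream Shh element they were 1.42 against LGE, 1.18 and 1.55 against CGE, and 1.31 to 1.46 against CTX. For Ptch1 they were 1.08 to 1.26 against LGE or CGE and 3.69 to 4.03 against CTX, and for Hhip 1.74 to 2.65. Leaving out a CTX sample moved the Ptch1 difference from CTX further, to 5.57 without CTX 1 and 3.11 without CTX 2. With the CTX samples added to the fit, the LGE call at the Shh start was the only 1 of these 4 elements' calls against LGE or CGE to remain (adjusted p = 0.0292), and with MGE and CTX samples alone no region in the genome was called (0 of 68273, 12385 at an unadjusted p under 0.05).

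The regions over the start sites of the other pathway genes did not follow the raised elements. The Ptch1 start region, chr13:63561609-63574487, read 275 and 266 CPM in MGE, 200 and 276 in LGE, 191 and 258 in CGE, and 115 and 177 in CTX. MGE overlapped LGE, and the lower CTX values did not pass the test (adjusted p = 0.666 against LGE, 0.469 against CGE and 0.0712 against CTX). The Gli1 start region, chr10:127338238-127342936, read 62.5 and 44.0 CPM in MGE and 40.6 to 57.5 in the other regions (adjusted p = 0.967, 0.897 and 0.232). The Hhip start region, chr8:80053930-80058907, read 39.3 and 37.9 CPM in MGE and 24.3 to 37.7 elsewhere (adjusted p = 0.752, 0.655 and 0.315). At Smo, the signal transducer, the start region chr6:29734906-29737763 read 58.7 and 48.5 CPM in MGE and 42.2 to 54.7 elsewhere (adjusted p = 0.941, 0.440 and 0.640).

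Gli1 is a target and an activator of the pathway, and none of its 5 tested elements was higher in MGE. Its element chr10:127331506-127333516 read 1.36 and 0.881 CPM in MGE, 3.18 and 4.13 in LGE, 2.09 and 3.63 in CGE, and 3.31 and 5.58 in CTX. It was lower in MGE than in LGE (log2 difference -1.70, SE 0.40, adjusted p = 0.0350) and CTX (-1.98, SE 0.46, adjusted p = 0.0367), but not per covered kb (adjusted p = 0.476 and 0.847). A second Gli1 element, chr10:127368644-127369523, lies within 1 kb of the start of the neighbouring gene Inhbc. It was lower in MGE than in LGE on both scales, at 2.62 and 3.52 against 6.31 and 6.67 CPM (-1.09, SE 0.26, adjusted p = 0.0332, and -1.09 per covered kb, adjusted p = 0.0127). Of the 7 tested Smo elements, 1 was called, chr6:29710590-29712640 inside Tspan33, which was lower in MGE than in CGE at 3.401 and 3.03 against 5.79 and 7.36 CPM (-1.03, SE 0.24, adjusted p = 0.0378). That sign turned per covered kb (0.18, adjusted p = 0.861).

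**Figure D2:**
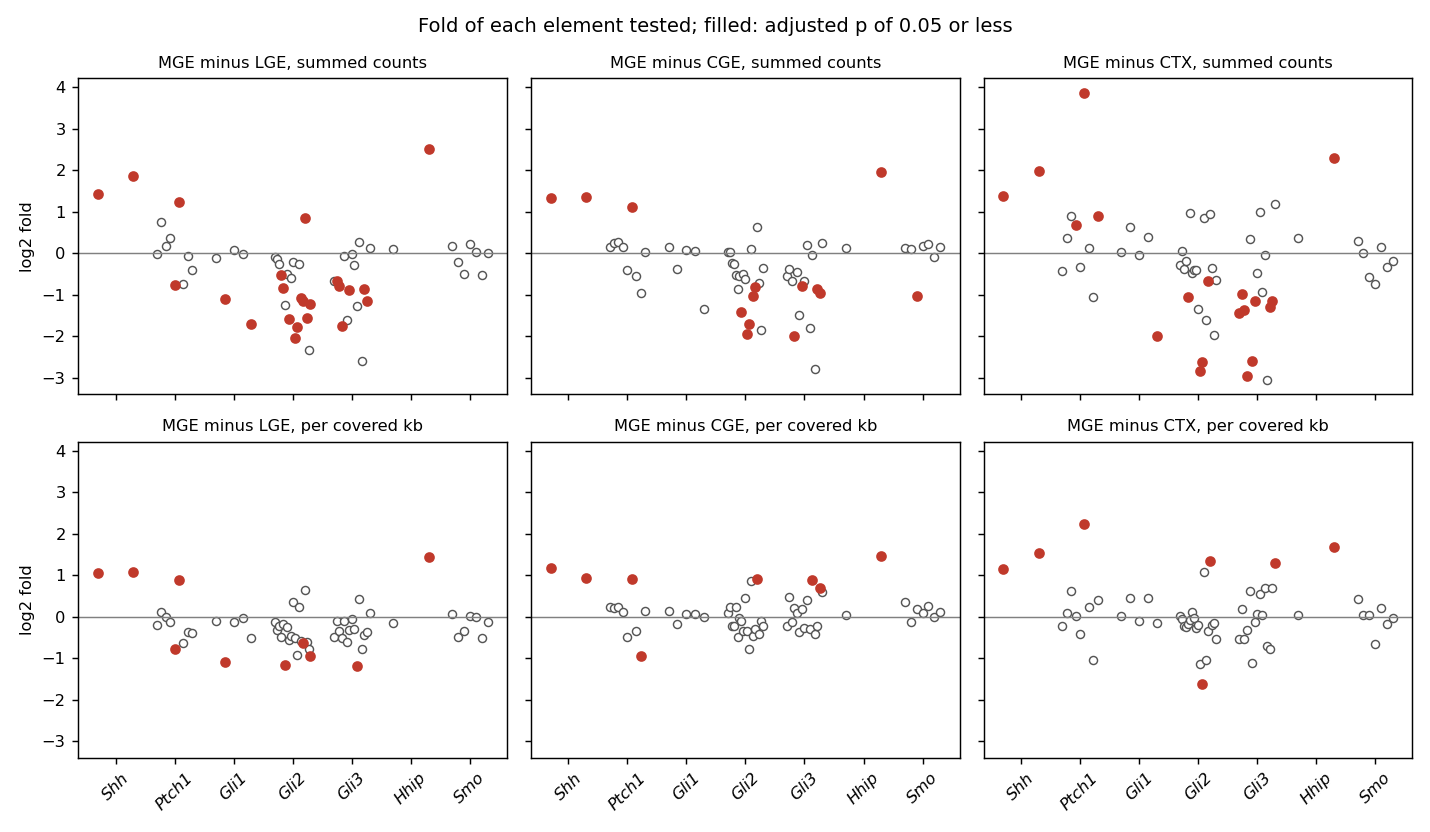
Log2 difference, MGE minus LGE, CGE or CTX (columns), of each of the 59 tested elements grouped by gene, on summed counts (upper row) and per covered kb (lower row), with filled points for elements at an adjusted p of 0.05 or less. Filled points above 0 are found at Shh, Ptch1 and Hhip in every panel, and most filled Gli2 and Gli3 points below 0 in the upper row are open in the lower row.

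The genes for the signal's effectors Gli2 and Gli3 held 19 and 15 of the 59 tested elements. On summed counts they carried most of the lower elements. On summed counts 9 of 19 Gli2 elements were lower in MGE than in LGE and 1 higher, 5 were lower than in CGE, and 4 lower than in CTX. At Gli3 6 of 15 were lower than in LGE, 4 lower than in CGE and 8 lower than in CTX, and none was higher. Of all regions 5.79%, 5.84% and 6.87% were lower against LGE, CGE and CTX. Over the tested elements the median log2 difference against LGE, CGE and CTX was -0.83, -0.55 and -0.41 at Gli2 and -0.78, -0.66 and -1.14 at Gli3, while the median of all 68274 regions was -0.01, -0.0017 and -0.03.

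These differences changed with the length under peaks as an offset. Peaks were called in each sample, so a difference in length and one in openness cannot be told apart. Calls of known markers were also lost on that scale, but over gene windows, where 0 of 18330 were called against LGE and CGE. Of the 68274 regions, 4423, 3472 and 4695 were still called per covered kb against LGE, CGE and CTX. Per covered kb the medians shrank to -0.50, -0.21 and -0.20 at Gli2 and to -0.35, 0.09 and 0.03 at Gli3, beside medians of all regions of -0.17, 0.10 and 0.04. At Gli2 3 elements were lower against LGE on that scale, 2 of which were also called on summed counts, none against CGE and 1 against CTX. At Gli3 1 was lower against LGE, which was not called on summed counts, and none against CGE or CTX. Per covered kb 1 Gli2 and 2 Gli3 elements were higher in MGE than in CGE, and 1 of each than in CTX. Of all regions 5.2%, 2.17% and 3.63% were lower on that scale against LGE, CGE and CTX, and 1.28%, 2.92% and 3.25% higher.

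**Figure D3:**
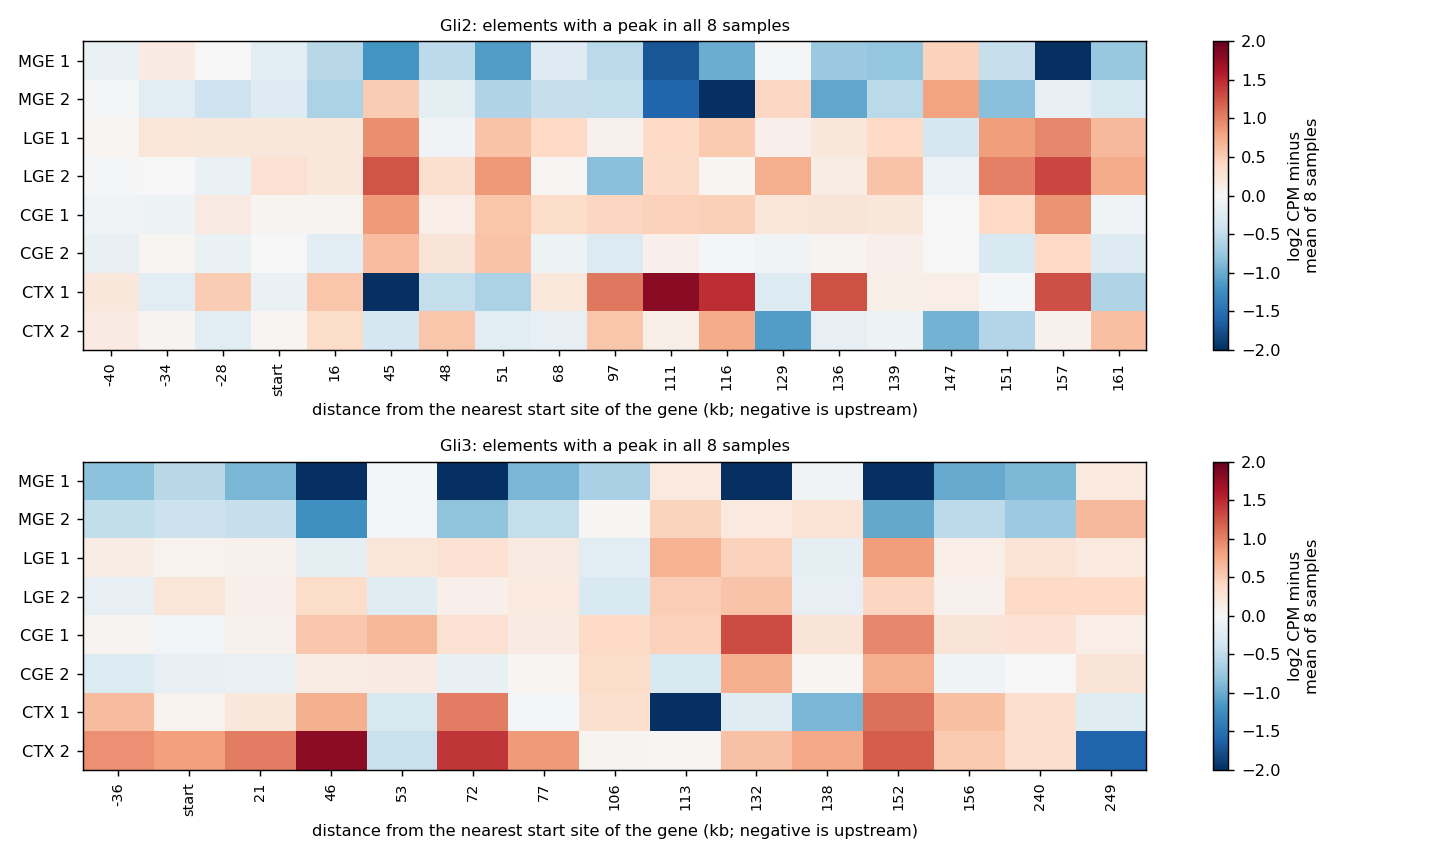
Heatmap of each tested Gli2 and Gli3 element (columns) in the 8 samples (rows), coloured by log2 CPM minus the mean of the 8 samples. Elements are ordered and named by their distance in kb from the nearest start site, with negative values upstream. MGE is lower than each other region in most columns.

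At Gli2 the called element with the largest difference in each comparison, chr1:118939512-118942569, was intronic and 111 kb from the nearest start. It read 1.65 and 1.81 CPM in MGE, 7.13 and 7.03 in LGE, 7.46 and 5.80 in CGE, and 18.9 and 5.84 in CTX, with MGE below every other sample. The log2 difference was -2.04 (SE 0.24, adjusted p = 0.00341) against LGE, -1.94 (SE 0.24, adjusted p = 0.00479) against CGE and -2.84 (SE 0.55, adjusted p = 0.0205) against CTX. Peaks covered 572 and 830 bp of it in MGE and 1637 to 2436 bp elsewhere, and no call held per covered kb (adjusted p = 0.407, 0.683 and 0.153). In glutamatergic-like nuclei, which were rare in MGE, this element read 14.53 and 17.7 CPM in LGE and 12.2 and 8.01 in CGE, and the part of these nuclei in the summed values was not tested.

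A second Gli2 intronic element, chr1:118935557-118936845, 116 kb from the nearest start, is the Gli2 sequence shown above. It read 2.63 and 1.11 CPM in MGE, 7.50 and 5.37 in LGE, 7.28 and 5.10 in CGE, and 14.499 and 8.77 in CTX, again without overlap between MGE and the rest. In log2 terms the difference was -1.77 (SE 0.43, adjusted p = 0.0367) against LGE, -1.70 (SE 0.43, adjusted p = 0.0457) against CGE and -2.63 (SE 0.51, adjusted p = 0.0211) against CTX, and per covered kb the CTX call alone was kept (-1.61, SE 0.38, adjusted p = 0.0306). Another Gli2 element, chr1:119000523-119002336, read 1.53 and 2.20 CPM in MGE, 4.90 and 6.07 in LGE, 4.89 and 4.94 in CGE, but 2.13 and 2.83 in CTX, and was lower than in LGE (-1.57, SE 0.27, adjusted p = 0.0119) and CGE (-1.41, SE 0.27, adjusted p = 0.0190) on summed counts alone. The Gli2 start region, chr1:119046075-119055256, read 97.1 and 95.1 CPM in MGE, 133 and 140 in LGE, 118 and 113 in CGE, and 104 and 116 in CTX. It was lower than in LGE (-0.52, SE 0.13, adjusted p = 0.0417), with the same size per covered kb but an adjusted p of 0.0794.

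A few Gli2 elements outside the naming rule were chosen after their values were seen. The intronic element chr1:118903691-118906667 was the only Gli2 element higher in MGE than in LGE on summed counts, at 10.9 and 13.9 against 6.30 and 7.30 CPM (log2 difference 0.85, adjusted p = 0.0375). That call was lost per covered kb (0.65, adjusted p = 0.118), where it was instead higher than in CGE (0.91, SE 0.24, adjusted p = 0.0251) and CTX (1.35, SE 0.25, adjusted p = 0.0130). The intronic element chr1:118909012-118914710 read 38.5 and 44.9 CPM in MGE against 60.8 to 97.7 elsewhere, and was lower than in LGE on both scales (-1.15, SE 0.15, adjusted p = 0.00452, and -0.64 per covered kb, adjusted p = 0.0291).

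At Gli3 the intronic element chr13:15509706-15515271, 45.7 kb from the nearest start, read 1.23 and 2.31 CPM in MGE, 4.75 and 6.96 in LGE, 7.86 and 5.99 in CGE, and 8.86 and 18.6 in CTX. MGE was below every other sample, and the log2 difference was -1.75 (SE 0.36, adjusted p = 0.0209) against LGE, -1.99 (SE 0.36, adjusted p = 0.0148) against CGE and -2.96 (SE 0.51, adjusted p = 0.0145) against CTX. No call held per covered kb (adjusted p = 0.495, 0.846 and 0.708), where the sign turned against CGE (0.21). Peaks covered 377 and 940 bp of this element in MGE and 835 to 5218 bp in the other samples.

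The intronic element chr13:15703766-15709156, 239.8 kb from the nearest start, read 19.8 and 22.5 CPM in MGE, 44.7 and 49.1 in LGE, 45.3 and 37.3 in CGE, and 46.7 and 46.8 in CTX. MGE differed by a log2 value of -1.16 (SE 0.16, adjusted p = 0.00567) against LGE, -0.97 (SE 0.16, adjusted p = 0.0114) against CGE and -1.14 (SE 0.16, adjusted p = 0.00789) against CTX. Its covered length was 1190 and 1661 bp in MGE, 2113 and 2755 in LGE, 4130 and 4777 in CGE, and 4668 and 5389 in CTX. Per covered kb the direction turned against CGE, where MGE was higher (0.69, adjusted p = 0.0447), and against CTX (0.69, adjusted p = 0.0889).

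The Gli3 start region, chr13:15460464-15475231, read 71.0 and 77.6 CPM in MGE, 110.3 and 123.1 in LGE, 100.45 and 93.1 in CGE, and 109.9 and 186 in CTX. It was lower than in LGE (-0.66, SE 0.14, adjusted p = 0.0229) and CTX (-0.99, SE 0.24, adjusted p = 0.0402), with CGE at an adjusted p of 0.137. Peaks covered 4702 and 8102 bp of it in MGE and 7563 to 13894 bp elsewhere, and neither call held per covered kb (-0.10, adjusted p = 0.867, and 0.18, adjusted p = 0.773). Over the whole Gli3 window the log2 difference against CTX was -1.12 on summed counts (SE 0.21, adjusted p = 0.0234) but 0.43 per covered kb (adjusted p = 0.482), with 24.7 and 42.8 kb covered in MGE against 81.2 and 109.9 kb in CTX.

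**Figure D4:**
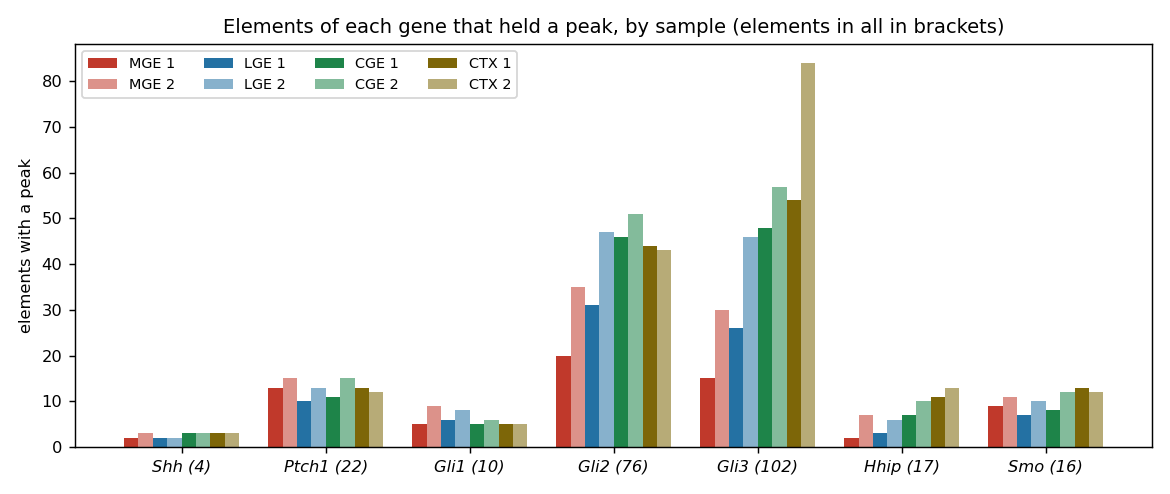
Number of elements of each gene that held a peak, for each of the 8 samples, with the number of elements of the gene in parentheses on the axis. MGE 1 has the fewest Gli2 and Gli3 elements with a peak, 20 and 15, and CTX 2 has the most at Gli3, 84.

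Elements without a peak in every sample were compared by presence only. At Gli3 a peak was present in 15 and 30 of the 102 elements in the MGE samples, 26 and 46 in LGE, 48 and 57 in CGE, and 54 and 84 in CTX. At Gli2 it was present in 20 and 35 of the 76 elements in MGE, 31 and 47 in LGE, 46 and 51 in CGE, and 44 and 43 in CTX. MGE 1 and LGE 1 also held the fewest peaks in the genome, 105456 and 103633, and the part of this in the member counts was not tested. Of the 247 elements, 15 had no MGE peak but a peak in at least 5 of the 6 other samples, 8 of them at Gli3, 6 at Gli2 and 1 at Hhip. That is 6.07% of the members' elements, where 1.91% of all 292532 merged regions showed the same pattern. Elements with a peak in both samples of a single region numbered 3 at Gli2 and 3 at Gli3 for CTX, and 4 and 2 for CGE. Over all 7 genes such elements were 8 of 247 for CTX (3.24%, against 3.14% of all merged regions), 6 for CGE (2.43% against 1.01%), 1 for MGE (0.405% against 0.61%) and 0 for LGE (against 0.0229%).

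To compare like nuclei, nuclei were clustered without the 59 tested elements, clusters were named from marker genes, and counts were summed within each class. Progenitor-like nuclei made up 52.2% and 39.2% of the MGE samples, 48.8% and 58.3% of LGE and 33.99% and 30.7% of CGE, but 1 and 13 nuclei in CTX, so CTX was left out. Different clusters held most of the class, a cluster led by Nkx2-1 in MGE and another in LGE and CGE, and in the same way a cluster led by Lhx6 held most GABAergic-like nuclei of MGE. In progenitor-like nuclei 5 of the 59 elements were higher and 14 lower in MGE than in LGE, where 11% of all 68270 regions were called (5.32% higher, 5.63% lower). Against CGE 2 were higher and 18 lower, where 10.7% were called (4.33% higher, 6.35% lower).

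**Figure D5:**
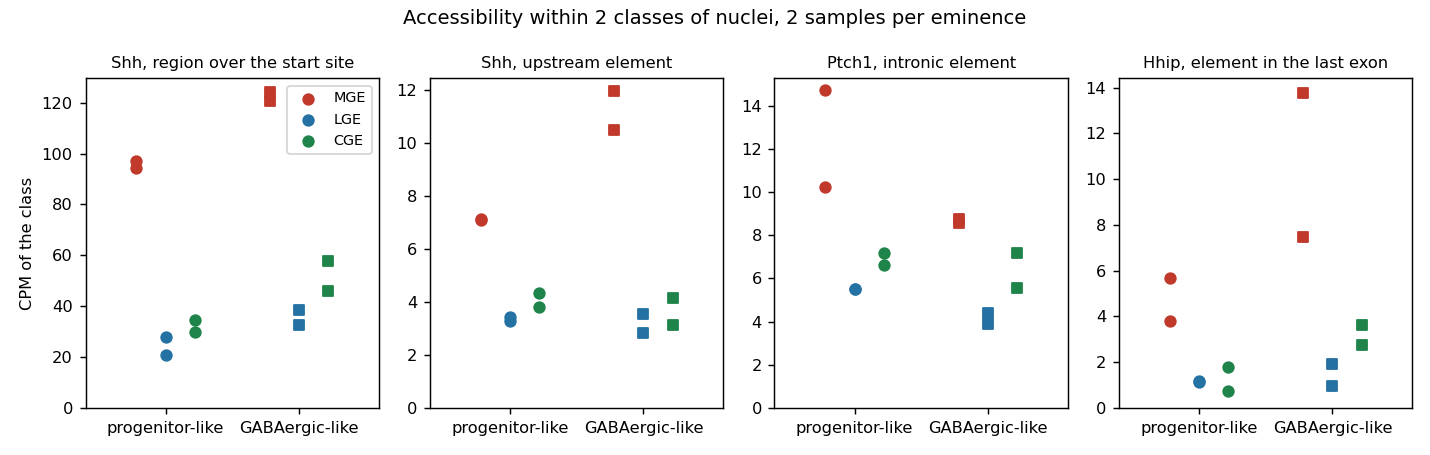
CPM within progenitor-like and GABAergic-like nuclei for both tested Shh elements, the Ptch1 intronic element and the Hhip last-exon element. Each of the 2 samples of MGE, LGE and CGE is a point. MGE lies above the other eminences at each element in both classes.

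The Shh start element read 94.2 and 97.2 CPM in progenitor-like nuclei of MGE, 20.8 and 27.9 in LGE and 29.7 and 34.6 in CGE, and in GABAergic-like nuclei 124 and 121, 32.7 and 38.3, and 46.0 and 57.7. MGE stood above both other eminences in each class, and in progenitor-like nuclei the log2 difference was 1.98 (SE 0.21, adjusted p = 0.00151) against LGE and 1.59 (SE 0.21, adjusted p = 0.00319) against CGE. The upstream Shh element was higher than in LGE in that class (1.10, SE 0.25, adjusted p = 0.0281) and missed the threshold against CGE (0.82, SE 0.26, adjusted p = 0.0841).

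The Ptch1 intronic element read 10.2 and 14.7 CPM in progenitor-like nuclei of MGE, 5.52 and 5.51 in LGE and 6.62 and 7.16 in CGE, which passed the test against LGE (1.19, SE 0.25, adjusted p = 0.0205) but not against CGE (0.87, SE 0.26, adjusted p = 0.0674). Against CGE no Ptch1 element was higher in that class and 2 were lower, chr13:63524078-63526751 (-0.997, adjusted p = 0.0380) and chr13:63540573-63545934 (-0.81, adjusted p = 0.0288). In GABAergic-like nuclei it read 8.57 and 8.75 in MGE, 4.39 and 3.88 in LGE and 7.16 and 5.56 in CGE. The 183 GABAergic-like nuclei of CTX 1 read higher than any of these, at 29.6 CPM from 31 counts, with a median of 3090 counts per nucleus. The part of that depth in the value was not tested, and CTX 2 held 14 such nuclei and gave no value. The Hhip last-exon element read 3.82 and 5.67 CPM in progenitor-like nuclei of MGE, 1.18 and 1.15 in LGE and 1.80 and 0.756 in CGE, and was higher than in LGE (2.03, SE 0.42, adjusted p = 0.0187) and CGE (1.92, SE 0.44, adjusted p = 0.0261). In both elements the MGE values were above those of LGE and CGE in each class.

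Both of the following lower elements were also lower within the class on summed counts. The Gli2 element chr1:118939512-118942569 read 1.46 and 1.30 CPM in progenitor-like nuclei of MGE, 7.14 and 6.996 in LGE and 7.95 and 5.21 in CGE (log2 difference -2.33, adjusted p = 0.00240, and -2.22, adjusted p = 0.00285). The Gli3 element chr13:15703766-15709156 read 27.1 and 35.1 CPM in progenitor-like nuclei of MGE, 69.4 and 65.6 in LGE and 87.1 and 76.7 in CGE (-1.11, adjusted p = 0.00556, and -1.38, adjusted p = 0.00242), and 3.46 to 21.1 CPM in GABAergic-like nuclei, so it was more open in the progenitor-like nuclei of every GE sample. Per covered kb the sign of the Gli3 difference from CGE turned in progenitor-like nuclei. That offset used the covered lengths of whole samples, so it is not a separate measure of length in that class.

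Of the other genes of the pathway, few windows differed. Among the genes of ligand release and reception reported here none was called against LGE or CGE, and on summed counts 2 were lower in MGE than in CTX. The co-receptors Cdon, at 83.1 and 104 against 264 and 227 CPM (-1.39, SE 0.18, adjusted p = 0.00790), and Boc, at 108 and 115 against 229 and 212 (-0.98, SE 0.15, adjusted p = 0.0122), were those 2, where 3.78% of all windows were lower. Per covered kb both signs turned, to 0.52 for Cdon (adjusted p = 0.362) and 0.47 for Boc (adjusted p = 0.420), with 11.4 and 17.7 kb covered in MGE against 53.4 and 53.6 kb in CTX for Cdon. None of 15 genes of signal transduction to the GLI proteins, among them Sufu and Kif7, was called in any comparison on either scale. In the reported fit none of these windows was called per covered kb. With the replicate number as a block, Gsk3b was lower than in LGE (-0.51, adjusted p = 0.0115) and Spop was higher than in CTX (0.75, adjusted p = 0.0472). Boc, Cdon and Gas1 were higher than in CGE (0.43 to 0.45, adjusted p = 0.0258 to 0.0327). Of 18330 windows the block fit called 2554 against LGE (55 higher), 1065 against CGE (1029 higher) and 181 against CTX (158 higher). Its median log2 differences over all windows were -0.19, 0.14 and 0.16.

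Among 12 genes that respond to the signal or mark ventral forebrain, Nkx2-1 read 303 and 208 CPM in MGE and 13.1 to 28.5 in the other samples. On summed counts it was higher in MGE than in LGE (3.396, adjusted p = 0.00100), CGE (3.37, adjusted p = 0.00127) and CTX (4.11, adjusted p = 0.000628), and per covered kb it was called against CTX alone (2.26, adjusted p = 0.000738), with differences of 1.57 (SE 0.21, adjusted p = 0.400) against LGE and 1.81 (SE 0.21, adjusted p = 0.124) against CGE. In these fits no other gene of the list was called against LGE or CGE. With the replicate number as a block, per covered kb, Olig1 (adjusted p = 0.0122 and 0.00573) and Olig2 (0.0216 and 0.0187) were called against both. Nkx6-2 (0.0186) was called against CGE, and all were higher in MGE. Of 18330 windows that fit called 55 higher in MGE than in LGE and 1029 higher than in CGE. Against CTX 5 of the 12 were higher on summed counts, where 1.24% of all windows were, with Olig1 at 164 and 119.6 against 59.8 and 45.4 CPM (1.43, adjusted p = 0.00790) and Olig2 at 190.1 and 141 against 75.3 and 44.1 (1.47, adjusted p = 0.0186), and 1, the cyclin gene Ccnd2, was lower (-0.56, adjusted p = 0.0419, with 3.78% of all windows lower). The list medians on summed counts were 0.34, 0.44 and 0.72 against LGE, CGE and CTX, beside medians over all genes of 0.01, 0.01 and -0.01.

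The deposited counts of GLI2 motif matches in peaks gave no difference that passed the test. They were 124 and 177 CPM of motif counts in MGE, 95.01 and 109.8 in LGE, 158 and 173 in CGE, and 162 and 160 in CTX, so the MGE samples lay on either side of CGE and CTX and above LGE. The difference on the log2 scale was 0.55 (SE 0.20, adjusted p = 0.683) against LGE, -0.14 (adjusted p = 0.939) against CGE and -0.10 (adjusted p = 0.807) against CTX. None of the 579 motifs (0%) was called by edgeR in any comparison, with 25, 17 and 92 at an unadjusted p under 0.05, while DESeq2 called 5, 7 and 68. The unadjusted p of GLI2 against LGE was 0.0354.

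The windows most like each member over the 8 samples, by Pearson correlation of log2 CPM per covered kb among 18327 genes, were 8030474K03Rik (0.958), Cxcr3 (0.954) and Lins1 (0.950) for Shh. For Ptch1 they were Suclg1 (0.993), Cpa1 (0.992) and Acvrl1 (0.990), for Gli2 Arhgap22 (0.996), Grik1 (0.993) and Tepp (0.993), and for Gli3 Lrig1 (0.995), AI429214 (0.994) and Zfat (0.994). For Gli1 they were Hesx1 (0.987), Uros (0.987) and Bspry (0.984), for Hhip Cacnb2 (0.991), Psg19 (0.986) and Ap1s2 (0.984), and for Smo Uap1l1 (0.995), Tmed10 (0.995) and Abhd3 (0.993). The points share libraries, depth and each sample's covered length, and the Shh correlations were the lowest of the 7 genes. A correlation over 8 samples picked from so many genes is a description only.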

How the data were processed

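Single-nucleus ATAC-seq of 8 samples was used as deposited: per sample a peak list, raw counts per peak and nucleus, and raw counts per motif and nucleus. The submitters' processing notes name Cell Ranger ATAC 1.2.0 and GRCm38. The authors made the deposited counts with peaks called separately in each sample. Of the count entries 5.17% to 10.4% were odd, and the reason was not tested. How barcodes were filtered was not stated, all barcodes were kept, and no doublet caller was run.

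The 7 members, the gene lists and the tests were chosen with earlier results of these data known. Peaks overlapping across samples were merged, and counts were summed over nuclei, because nuclei do not replicate a region. GENCODE release M21 gave gene bodies and starts; all peaks lay within GRCm38 chromosome lengths, and coordinates are 1-based. edgeR 4.0.16 (R 4.3.3; glmQLFit and glmQLFTest, TMM, filterByExpr) tested 68274 regions, 18330 gene windows, 579 motifs, and 68270 regions in progenitor-like nuclei. Benjamini-Hochberg adjustment ran over all features of each family, with a threshold of 0.05. LGE and CGE contrasts were fitted on the 6 GE samples and the CTX contrast on all 8. Regions were tested on summed counts and gene windows per covered kb, with the other scale as an alternative. Alternatives were DESeq2 1.42.0, library totals without TMM, no filter, a replicate block, separate scaling near and far from starts, 2 and 100 kb windows, and leaving out each sample. The tests were tried on simulated data.

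Nuclei were clustered with Leiden (resolution 0.5) on 30 components of the TF-IDF matrix (scikit-learn 1.9.0, leidenalg 0.10.2) and named where at least 3 markers of a list were raised, their list mean was at least 0.25 on the log2 scale, and no other list had as many raised or more among the top 10 genes; the scoring rule was set with clusters known. Named elements were those over a start site, up to 3 called elements with the largest fold per gene and contrast, or the element of smallest p where none was called, and untested elements with a peak in both samples of a single region only; genes most like a member were the 3 with the highest correlation. A gene of the pathway lists is not reported here. Covered length is the length under a sample's own peaks, also in the fits of progenitor-like nuclei. The totals of 77387940 to 138873845 counts per sample limit precision at elements with few counts.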

Additional observations from a re-analysis of the deposited data

How the results depend on the processing

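The counts of called elements depended on the model and changed when a sample was left out, as did the counts over all regions. Leaving out a sample leaves 1 in its region, and the part of that loss or of a single library was not tested. Against LGE 23 of the 59 elements were called in the reported fit, 3 with all 8 samples in the model (474 regions genome-wide) and 10 per covered kb. When regions with a peak in at least 2 samples were tested together, 10 were called, where 5980 of 152451 regions were. Against CGE the 14 calls became 0 (222 regions called genome-wide, 8839 at an unadjusted p under 0.05), 8, 2 and 2 to 18, with 2 without CGE 1, 4 without CGE 2 and 9 without MGE 1. Against CTX the 19 calls became 0 with MGE and CTX samples alone, 7 per covered kb, 6 with regions of at least 2 samples and 1 to 32 when a sample was left out, with 1 without MGE 1, 8 without MGE 2 or CGE 2, 10 without LGE 1, LGE 2 or CGE 1, and 32 without CTX 2. In progenitor-like nuclei 19 calls against LGE became 7 per covered kb and 7 to 24 with a sample left out (7 without either LGE sample, 12 without MGE 1), and 20 against CGE became 9 and 6 to 19 (6 without CGE 1, 9 without CGE 2, 13 without MGE 1). Genome-wide, DESeq2 called 11404, 10693 and 15095 regions against 7269, 6421 and 8039 by edgeR, and per covered kb edgeR called 4423, 3472 and 4695.

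For gene windows the 0 members called against LGE and CGE became 1 and 1 with DESeq2 and 1 and 1 on summed counts. The 1 called against CTX became 3 on summed counts, where 920 of 18330 windows were called. It became 0 with windows reaching 100 kb upstream, where 23 of 19040 were called. The GLI2 motif difference ranged with a sample left out from 0.274 (without MGE 2) to 0.786 (without MGE 1) against LGE, from -0.417 to 0.094 against CGE and from -0.352 to 0.137 against CTX, and was positive without MGE 1 in the last 2 comparisons. Per covered kb the sign turned against CGE at the Smo element (0.18), at the Gli3 elements chr13:15509706-15515271 (0.214, and 0.211 in progenitor-like nuclei), chr13:15540627-15557383 (0.192) and chr13:15703766-15709156 (0.689, and 0.267 in progenitor-like nuclei), and at the Gli3 start in progenitor-like nuclei (0.232), and against CTX at the Gli3 start (0.179) and chr13:15703766-15709156 (0.693). The Gli3 window turned to -1.122 against CTX on summed counts. The values per covered kb carry each sample's covered length as an offset, in progenitor-like nuclei that of the whole sample. The cause of these and the other changes was not tested.

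The replicate numbers were not taken as pairing the samples, since not every correlation of same-numbered samples' deviations exceeded 0.1. Over regions it was 0.0742 for MGE and LGE, -0.042 for MGE and CGE and 0.0309 for MGE and CTX, but 0.324 for LGE and CGE, 0.177 for LGE and CTX and 0.154 for CGE and CTX. Over gene windows it was 0.0178, -0.213 and -0.02 with MGE, but 0.585, 0.231 and 0.166 without it. The share of odd count entries also split by number, at 9.54% to 10.4% in the samples numbered 1 and 5.17% to 5.85% in those numbered 2, and its part in the results was not tested. With the replicate block, 1 member window (Shh) was called against LGE and 2 (Shh and Gli3) against CGE, all higher in MGE per covered kb. For Gli3 the difference was 0.54 (adjusted p = 0.00745), in a window at -0.73 on summed counts. Of 18330 windows that fit called 2554 against LGE (55 higher) and 1065 against CGE (1029 higher), and its median difference from CGE was 0.14. Regions called genome-wide with the block numbered 7423, 6451 and 7638. Depth limits elements with few counts, such as the 17 counts of the Ptch1 intronic element in CTX 2.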
